A study of Mus musculus with 6 samples.

Results

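The genes described here are 34 regulators and targets of the transcription factor NRF2, together with genes of glutathione, thioredoxin and NADPH supply. They were chosen by symbol from a list of known roles, drawn up with earlier results of these data known, and all 34 were found among the 24411 features of the count tables. All 34 were expressed above the minimum count and were among the 10133 genes tested. RNA-seq was performed on mouse primary microglia (PM) after 4-h of treatment, in 3 libraries with GSK-J4 at 10 μM and 3 libraries with the same dose of GSK-J4 plus LPS at 10 ng/ml (LPS + GSK-J4). GSK-J4 is a cell-permeable inhibitor of the histone H3 demethylases JMJD3 and UTX, and LPS is a bacterial cell wall component that activates TLR4. All 6 libraries therefore carried GSK-J4, and the comparison asks how the genes differed when LPS was added in its presence. Untreated PM and PM treated with LPS alone were not analysed here, so an effect of GSK-J4 itself was not measured. PM were shaken off mixed glial cultures of pooled brains of newborn ICR mice, 3 days old, and the labels name no genetic change.

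NRF2, encoded by Nfe2l2, is a basic leucine zipper protein that KEAP1 holds in the cytoplasm and delivers for degradation in resting cells. When electrophiles or oxidants modify KEAP1, NRF2 accumulates, pairs with a small MAF protein and binds the antioxidant response element, where BACH1 with the same MAF partners acts as a repressor. Its targets make and recycle glutathione, reduce peroxides through the thioredoxin system, supply NADPH and degrade haem, and activated microglia are a source of the superoxide and peroxides that these enzymes remove.

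Each library held 2597505 to 3472716 fragments assigned to genes. The rRNA feature Rn45s took 22.2% to 32.4% of them in the GSK-J4 libraries and 45.8% to 48.1% in the LPS + GSK-J4 libraries. Outside Rn45s and the features Mir6236 and Lars2, grouped with it here, 1499693 to 2443344 and 1374377 to 1444886 counts were left. Levels are given as CPM, the counts of a gene relative to the scaled library total (TMM), with libraries set to a common scale from the bulk of the genes, and 3 counts in a library corresponded to 0.673 to 1.24 CPM. Replicate 3 of each group stood apart on the second principal component (16.4% of the variance), and results that turned on it are given with and without it. The spread of counts relative to counting noise was narrow between replicates 1 and 2. There the chi-square per degree of freedom was 2.12 (GSK-J4) and 2.32 (LPS + GSK-J4). For pairs with replicate 3 it was 12.2 to 12.5 and 5.81 to 5.88. Fits on replicates 1 and 2 alone rest on that narrow spread, and their p values do not measure the spread of all libraries. Errors are SD over 3 libraries. The study describes the replicates as independent biological samples, while the labels do not say whether they came from separate cultures, and p values measure the spread between these libraries.

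The markers of the labelled cell type were present in all libraries, but their level differed between the groups. All 14 microglial marker genes were above the filter, and their summed level was 4337 to 4455 CPM in the GSK-J4 libraries and 3528 to 3598 CPM in the LPS + GSK-J4 libraries. Of these markers 6 were down-regulated, including Cx3cr1, the fractalkine receptor (log2 fold change -0.48), and Csf1r, the receptor for colony-stimulating factor (-0.46), and 0 were up-regulated. The summed markers of other cell types were higher with LPS. The summed astrocyte markers were at 70.0 to 73.8 and 161.6 to 199.9 CPM, with 6 of 10 tested genes up-regulated, and Gfap was at 16.8 ± 2.34 and 54.4 ± 11.8 CPM (SD, n = 3). The oligodendrocyte markers summed to 218 to 251 and 395 to 451 CPM with 5 of 8 tested genes up-regulated. The 10 neuronal markers summed to 31.4 to 40.9 and 78.0 to 98.7 CPM, with 5 of 5 tested genes up-regulated. The other 5, Rbfox3, Snap25, Syt1, Nefl and Slc17a7, were too low to test, with means of at most 1.07 CPM and no common direction. The fibroblast markers summed to 635 to 898 and 991 to 1696 CPM with 2 of 8 up-regulated, Fn1 and Acta2. Fn1 alone was at 594 ± 67.0 and 930 ± 227 CPM, and the groups of the 6 genes not called overlapped. The endothelial markers summed to 16.6 to 23.1 and 29.3 to 64.0 CPM with 1 of 2 up-regulated, and 2 of them, Cldn5 and Emcn, were at 0 in every library. In bulk RNA, fewer cells of a type and less RNA per cell cannot be told apart. The part of these shifts in the results on single genes was not tested.

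The antioxidant response element has the core TGACNNNGC, which was searched on both strands in RefSeq promoter windows (GRCm38.p6, 250 bases before to 50 bases after a transcript start). A window was at hand for 29 of the 34 genes, all but Hmox1, Gclc, Gsr, Gsta4 and Prdx6. The core was present in 11 of the 29 (37.9%), against 3781 of 27025 mouse genes (14.0%). The 34 were chosen for their roles in the NRF2 pathway, so this difference is not a result of the libraries. The mouse genes were not limited to those tested here, and some of the 29 had several windows. Of the genes with a window, the core was found in 3 of 6 up-regulated, 2 of 4 down-regulated and 6 of 19 not called. The matches near the starts of the up-regulated and down-regulated genes and of Nfe2l2 are printed here to show their letters in genes that moved in opposite directions. Each is written 5′ to 3′ on the strand of its gene, with the 9-base core in capitals, and the core may read in either orientation.
Prdx1 (chr4:116685456-116685484, plus strand): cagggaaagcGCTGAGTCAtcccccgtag
Me1 (chr9:86695902-86695930, minus strand): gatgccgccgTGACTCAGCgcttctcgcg
Txnrd1 (chr10:82859104-82859132, plus strand): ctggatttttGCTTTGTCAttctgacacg
Gclm (chr3:122245413-122245441, plus strand): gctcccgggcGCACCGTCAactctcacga
Mafk (chr5:139791513-139791541, plus strand): gatcccggaaGCGGTGTCAgtactgggga
Nfe2l2 (chr2:75704885-75704913, minus strand): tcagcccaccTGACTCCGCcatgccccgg

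The cores of the up-regulated Prdx1 and Me1 had the same letters, TGACTCAGC, in opposite orientations. Counted from the first base of the core on the strand of the gene to the RefSeq start, they lay 133 and 6 bases before it, so that the core of Me1 ran across the start. They were the only 2 of the 11 matches that overlapped TGANTCA, the motif of AP-1 dimers. The core of Txnrd1 lay 92 bases before a later start within the gene. The cores of the down-regulated Gclm and Mafk had other variable bases and lay 134 and 13 bases before the RefSeq start. The RefSeq starts of Prdx1, Me1 and Mafk lie within the GENCODE genes whose positions are given with the values, and so do the cores of Me1 and Mafk. The matches of Mafg, Srxn1, G6pdx, Pgd and Sod1, genes that were not called, are not printed. A match of letters does not show that a factor was bound in these cells. The bases before the starts of Prdx1 and Gclm are given as longer context, since these 2 genes, each with a match of the core, differed in direction.
Prdx1 (chr4:116685349-116685543, plus strand): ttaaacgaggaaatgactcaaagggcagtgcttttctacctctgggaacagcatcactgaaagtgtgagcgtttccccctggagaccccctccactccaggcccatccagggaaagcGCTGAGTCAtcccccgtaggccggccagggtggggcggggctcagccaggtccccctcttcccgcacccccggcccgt
Gclm (chr3:122245307-122245556, plus strand): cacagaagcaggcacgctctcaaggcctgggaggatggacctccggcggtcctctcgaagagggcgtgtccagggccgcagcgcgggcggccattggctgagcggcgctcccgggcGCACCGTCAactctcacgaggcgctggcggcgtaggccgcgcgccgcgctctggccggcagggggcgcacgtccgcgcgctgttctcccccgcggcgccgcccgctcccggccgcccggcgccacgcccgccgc

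The NRF2 program did not move as a block between LPS + GSK-J4 and GSK-J4. At an adjusted p of at most 0.05 (edgeR quasi-likelihood test, Benjamini-Hochberg over 10133 genes), 7 genes were up-regulated: Gsta4, Sod2, Me1, Txnrd1, Gss, Gpx1 and Prdx1. They were 20.6% of the 34, where 13.7% of all genes tested were up-regulated. The down-regulated genes were 5: Mafk, Gclm, Gstm1, Cat and Gclc, 14.7% against 9.91% of all genes. In either direction 12 genes were called (35.3% against 23.6%), and 22 were not. The median log2 fold change was -0.03, with 16 values above and 18 below 0, and the median over all genes tested was -0.00064. The changes were moderate, from -1.04 to 1.17 on the log2 scale, and 0 genes passed the thresholds of the study (a log2 change of 1.5 or more in either direction and an adjusted p no higher than 0.01), which 3.76% of all genes passed. That count was also 0 with DESeq2. The groups did not overlap in 17 of the 34 genes (50% against 38.2% of all genes), 9 with every LPS + GSK-J4 library higher (26.5% against 19.8%) and 8 with every one lower (23.5% against 18.4%). The summed level of the 34 genes was 7172 to 7686 CPM with GSK-J4 and 6865 to 8223 CPM with LPS + GSK-J4, so the groups overlapped. Hmox1 alone made up 29.1% to 42.5% of these sums, and without it they were 4122 to 4571 CPM and 4864 to 5045 CPM, which did not overlap. The sums without Hmox1 were weighted to Prdx1 (means of 775 and 1080 CPM) and Txnrd1 (383 and 642 CPM), the most abundant of the other genes. They do not show a rise of most genes, since 18 of the 34 log2 fold changes were below 0.

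**Figure D1:**
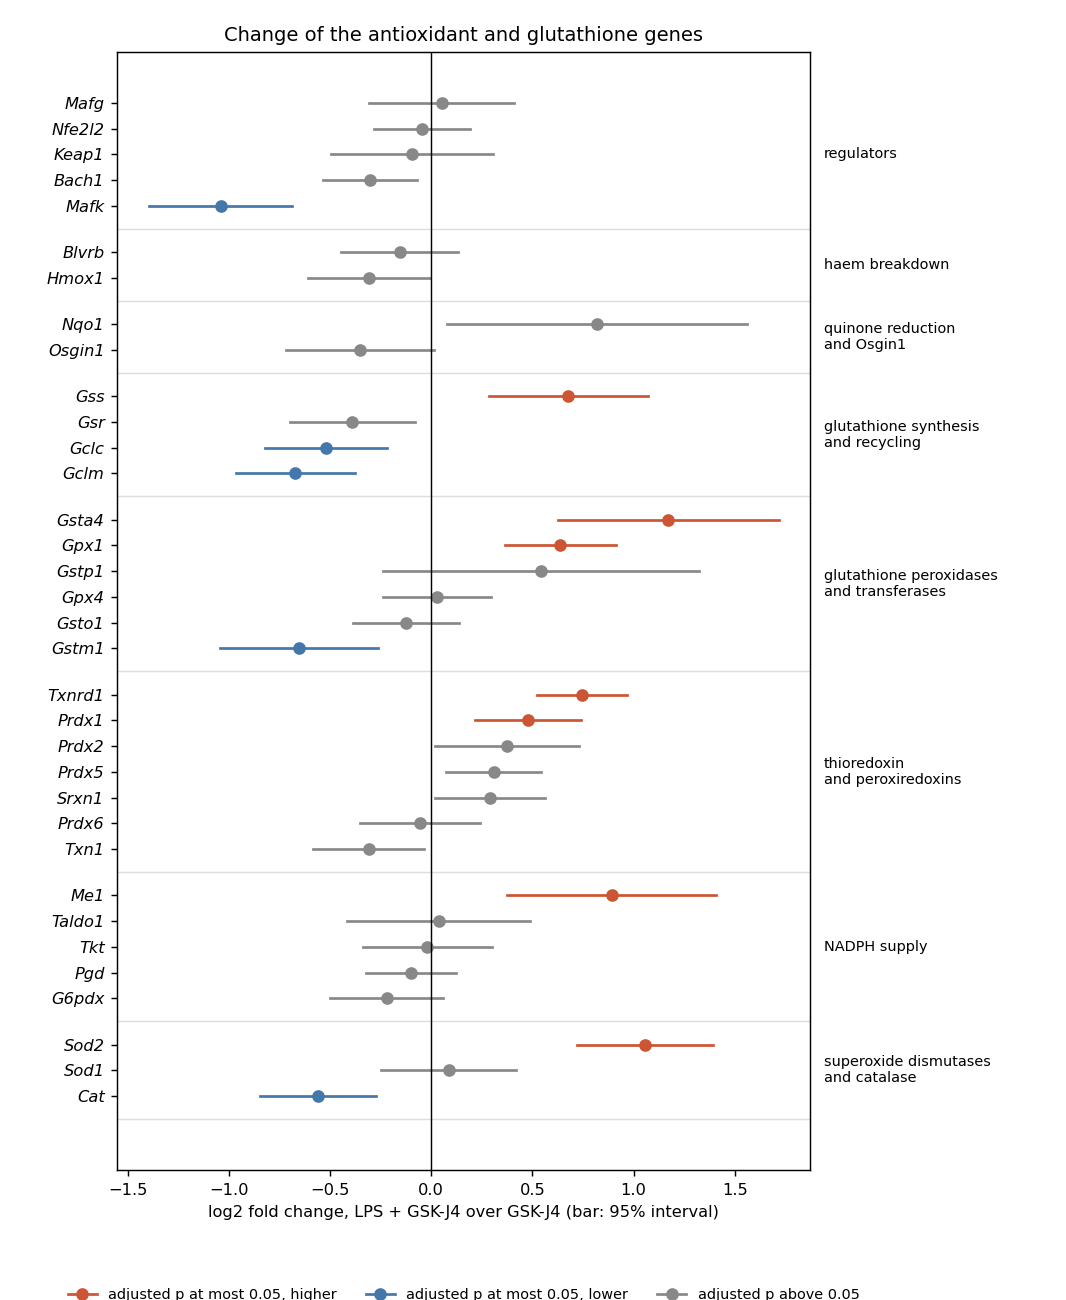
Log2 fold change of the 34 genes, LPS + GSK-J4 over GSK-J4, grouped by role, with lines for the 95% confidence interval of the edgeR fit and colours for the genes called in each direction. Gsta4 (1.17) and Sod2 (1.06) lie farthest to the right and Mafk (-1.04) farthest to the left, and 22 of 34 genes are not called.

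Of the 5 regulators, only the small MAF gene Mafk was called. Nfe2l2 itself, which encodes NRF2, was at 356, 354 and 309.8 CPM with GSK-J4 and at 346, 302 and 341 CPM with LPS + GSK-J4. The groups overlapped, and the log2 fold change was -0.05 (95% confidence interval -0.28 to 0.19, adjusted p = 0.814 by edgeR). Since NRF2 is controlled chiefly through the stability of the protein, the mRNA level does not measure its activity. Keap1, whose product marks NRF2 for degradation, was at 23.9 ± 2.96 and 22.3 ± 2.64 CPM (log2 fold change -0.10, interval -0.50 to 0.30). Bach1, the haem-regulated repressor, was at 218, 221 and 219.6 CPM with GSK-J4 and at 179, 183 and 172 CPM with LPS + GSK-J4. All 3 libraries with LPS were lower and the spread was narrow in both groups, yet the log2 fold change of -0.30 missed the threshold (adjusted p = 0.0560, edgeR). It passed in 5 of 14 alternatives. Among these were the DESeq2 Wald test (-0.35, adjusted p = 0.0297) and both groups reduced to replicates 1 and 2 (-0.27, adjusted p = 0.0316, edgeR). It was not called when any single library was left out (adjusted p from 0.0706 to 0.171, edgeR).

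Mafk (chr5:139791513-139802653) encodes a small MAF protein with no activation domain of its own that pairs with NRF2 or with BACH1. It was at 67.2, 77.9 and 101 CPM with GSK-J4 and at 35.9, 43.5 and 39.2 CPM with LPS + GSK-J4. The groups were well separated, and Mafk fell by 1.04 on the log2 scale (SE 0.17, adjusted p = 0.000259 by edgeR), which is 2.06-fold lower. Mafg, another small MAF gene, was at 43.6 ± 2.15 and 45.2 ± 10.1 CPM with overlapping groups (log2 fold change 0.05, interval -0.31 to 0.41). The fragments of Mafg can be shared with Sirt7, which overlaps 2.21% of its exon bases on the same strand. The third small MAF gene, Maff, was not among the 34 but showed the opposite change, from 65.6, 66.0 and 73.0 CPM to 198, 196 and 213 CPM (log2 fold change 1.57, adjusted p = 9.61e-08 by edgeR), and it passed the thresholds of the study.

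The haem-degrading genes were not called. Hmox1, the inducible haem oxygenase, was at 3115, 2911 and 3049.8 CPM with GSK-J4 and at 2001, 2159 and 3178 CPM with LPS + GSK-J4. The 3 GSK-J4 libraries lay close together, whereas replicate 3 of LPS + GSK-J4 was the highest of all 6 and replicates 1 and 2 the lowest. The log2 fold change over all libraries was -0.31 (interval -0.61 to -0.00, adjusted p = 0.138 by edgeR). Without replicate 3 of LPS + GSK-J4 it was -0.54 (adjusted p = 6.11e-05), and with both groups reduced to replicates 1 and 2 it was -0.53 (adjusted p = 4.08e-06). With all 6 libraries kept but no filter on low counts, Hmox1 was also called (-0.36, adjusted p = 0.00951), so the call depended both on this library and on the filter. Blvrb, biliverdin reductase B, was at 74.1 ± 6.26 and 66.4 ± 5.96 CPM (-0.16, interval -0.45 to 0.13).

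Nqo1, the quinone oxidoreductase often used as a readout of NRF2, was scarcely expressed. Its counts were 39, 20 and 14 with GSK-J4 and 26, 19 and 40 with LPS + GSK-J4, which gave 9.20, 4.49 and 5.13 CPM and 10.1, 7.25 and 16.5 CPM. The groups overlapped, and the log2 fold change of 0.82 (interval 0.08 to 1.56) was not called (adjusted p = 0.105, edgeR). It moved with single libraries, to 1.23 without replicate 1 of GSK-J4 (adjusted p = 0.0332) and to 0.45 without replicate 3 of LPS + GSK-J4 (adjusted p = 0.387), and was 0.36 with both groups reduced to replicates 1 and 2. Osgin1, an oxidative stress response gene of growth inhibition, was at 43.5 ± 7.85 and 33.9 ± 3.42 CPM (-0.35, interval -0.72 to 0.02).

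Glutathione synthesis split by step: the genes of the first enzyme fell and the gene of the second rose. The first and rate-limiting enzyme, glutamate-cysteine ligase, has a catalytic subunit, Gclc (chr9:77754535-77794485), and a modifier subunit, Gclm (chr3:122245557-122270732). Gclc was at 126, 116 and 102 CPM with GSK-J4 and at 71.0, 75.6 and 94.6 CPM with LPS + GSK-J4 (log2 fold change -0.52, SE 0.14, adjusted p = 0.0141 by edgeR). Gclm, whose match of the core is printed above, was at 131, 135 and 107 CPM and at 71.4, 74.8 and 88.4 CPM (-0.67, SE 0.14, adjusted p = 0.00206). Both genes were lower in every LPS + GSK-J4 library than in any GSK-J4 library, and in both genes the lowest GSK-J4 and the highest LPS + GSK-J4 library were replicate 3. Glutathione synthetase, Gss (chr2:155563181-155592810), which adds glycine in the second step, was at 17.2, 15.5 and 14.7 CPM and at 23.0, 26.3 and 26.8 CPM (0.68, SE 0.19, adjusted p = 0.0143). Glutathione reductase, Gsr, which regenerates glutathione with NADPH, was at 75.5, 68.0 and 65.6 CPM and at 51.9, 61.4 and 46.3 CPM. It was lower in all 3 LPS + GSK-J4 libraries, but at -0.39 (interval -0.70 to -0.08) it was not called (adjusted p = 0.0643, edgeR).

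The calls of Gclc and Gss depended on single libraries. Gclc had an adjusted p of 0.0735 without replicate 1 of GSK-J4, and of 0.0571 and 0.0767 without replicates 1 and 2 of LPS + GSK-J4, and Gss of 0.0681 and 0.0560 without replicate 2 of GSK-J4 and of LPS + GSK-J4 and of 0.0853 with DESeq2. With both groups reduced to replicates 1 and 2, the log2 fold change of Gclc was -0.72 (adjusted p = 2.42e-05, edgeR) and that of Gclm -0.85 (adjusted p = 1.53e-06). The declines of Gclc and Gclm, and those of Mafk, Gstm1 and Cat, went with lower microglial markers (median log2 fold change -0.35), and the part of that shift in them was not tested.

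Of the glutathione peroxidases and transferases, 2 of 6 were up-regulated and 1 was down-regulated. Gsta4 (chr9:78182774-78209349), a transferase with high activity towards the lipid peroxidation product 4-hydroxynonenal, was at 14.4, 14.4 and 11.7 CPM with GSK-J4 and at 18.0, 32.8 and 41.7 CPM with LPS + GSK-J4. It rose 2.25-fold (log2 fold change 1.17, SE 0.26, adjusted p = 0.00326 by edgeR), the largest change of the 34 over all libraries. Without replicate 3 of LPS + GSK-J4 its log2 fold change was 0.89, below that of Sod2 (1.12), and with both groups reduced to replicates 1 and 2 it was 0.83 (Sod2 0.98). Its 3 LPS + GSK-J4 libraries differed widely, and the lowest of them was close to the GSK-J4 group. Gpx1 (chr9:108338903-108340343), the cytosolic glutathione peroxidase, was at 117, 124 and 136 CPM and at 185, 175 and 226 CPM (0.64, SE 0.13, adjusted p = 0.00177). The groups did not overlap, and the increase was 1.56-fold. Gpx4, which reduces lipid hydroperoxides in membranes, was at 98.0 ± 6.70 and 99.8 ± 7.74 CPM (0.03, interval -0.24 to 0.30, adjusted p = 0.898). Gpx1 was thus called and Gpx4 was not.

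Gstm1 (chr3:108012255-108017973), a mu-class transferase, was at 56.4, 54.1 and 41.4 CPM with GSK-J4 and at 25.0, 33.2 and 39.2 CPM with LPS + GSK-J4. It fell by 0.65 on the log2 scale (SE 0.18, adjusted p = 0.0169, edgeR), although the lowest GSK-J4 and the highest LPS + GSK-J4 library, both replicate 3, were almost level. The adjusted p was 0.0757 and 0.0686 without replicates 1 and 2 of GSK-J4, and 0.0725 and 0.0581 without replicates 1 and 2 of LPS + GSK-J4. Without replicate 3 of GSK-J4 the log2 fold change was -0.77 (adjusted p = 0.00827, edgeR). Gsto1, an omega-class transferase, was at 97.0 ± 6.78 and 88.9 ± 3.17 CPM (-0.12, interval -0.39 to 0.14). Gstp1, the pi-class transferase, had 16 to 47 counts per library, and its log2 fold change of 0.54 had a wide interval (-0.24 to 1.32). Gstm1 and Gstp1 have near-identical relatives, and fragments that match several of them are not counted, so their levels are uncertain.

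The thioredoxin system was higher in sum, a sum weighted to its 2 most abundant genes, Prdx1 and Txnrd1. The 7 genes summed to 1695 to 2053 CPM with GSK-J4 and to 2516 to 2535 CPM with LPS + GSK-J4. These 2 were up-regulated, 0 were down-regulated and 5 were not called, and 2 of the 7 had log2 fold changes below 0. Txnrd1 (chr10:82833951-82897712), the cytosolic thioredoxin reductase, was at 408, 379 and 363 CPM and at 651, 609 and 666 CPM. The replicates were tight in both groups, and Txnrd1 rose 1.67-fold (log2 fold change 0.74, SE 0.11, adjusted p = 7.81e-05 by edgeR), the lowest p of the 34. Prdx1 (chr4:116685544-116700822), an abundant cytosolic peroxiredoxin, was at 865, 832 and 628 CPM and at 1105, 1127 and 1009 CPM (0.48, SE 0.12, adjusted p = 0.00982). Prdx1 was higher in every LPS + GSK-J4 library, but its adjusted p was 0.0588 without replicate 2 of LPS + GSK-J4.

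The substrate of thioredoxin reductase, Txn1, did not follow it. Txn1 was at 189, 206 and 177 CPM with GSK-J4 and at 153, 176 and 132 CPM with LPS + GSK-J4, lower in every LPS + GSK-J4 library, and was not called (log2 fold change -0.31, interval -0.58 to -0.04, adjusted p = 0.0973 by edgeR). Srxn1, the sulfiredoxin that repairs over-oxidized peroxiredoxins, was at 180.5, 157 and 149 CPM and at 184, 185 and 228 CPM (0.29, interval 0.02 to 0.56, adjusted p = 0.117). Prdx5, a peroxiredoxin of mitochondria and peroxisomes, was at 231, 208 and 241 CPM and at 288, 276 and 278 CPM. Its groups did not overlap, its log2 fold change was 0.31 (interval 0.07 to 0.54), and its adjusted p was 0.0535 by edgeR. Prdx5 was called in 4 of 14 alternatives, among them the fit without replicate 3 of LPS + GSK-J4 (adjusted p = 0.0371, edgeR). Over the alternatives its adjusted p by edgeR or DESeq2 ran from 0.00360 to 0.275. Prdx2, a second cytosolic peroxiredoxin, was at 57.5 ± 7.15 and 75.0 ± 17.7 CPM (0.37, interval 0.02 to 0.73) and Prdx6, the single-cysteine member, at 101 ± 13.9 and 97.2 ± 11.2 CPM (-0.06, interval -0.35 to 0.24). Named pseudogenes of Txn1, Gpx4 and Prdx6 are annotated, and fragments that also match them are not counted.

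Of the 5 NADPH-supplying genes, only malic enzyme was called. Me1 (chr9:86581371-86695953), the cytosolic NADP-dependent malic enzyme, was at 14.2, 7.41 and 12.8 CPM with GSK-J4 and at 20.7, 19.5 and 23.1 CPM with LPS + GSK-J4. It rose 1.86-fold (log2 fold change 0.89, SE 0.24, adjusted p = 0.0140 by edgeR) without overlap of the groups, from as few as 33 counts in a library. The adjusted p was 0.0942 without replicate 2 of GSK-J4, the library with the lowest value, and 0.0519 with DESeq2. The genes of the pentose phosphate pathway differed little. G6pdx and Pgd, its oxidative, NADPH-forming enzymes, were at 80.4 ± 3.30 and 69.0 ± 7.32 CPM (-0.22, interval -0.50 to 0.06) and at 374 ± 20.6 and 349 ± 4.43 CPM (-0.10, interval -0.32 to 0.12). Taldo1 and Tkt, the transaldolase and transketolase of the non-oxidative branch, had log2 fold changes of 0.04 (interval -0.42 to 0.49) and -0.02 (interval -0.34 to 0.30).

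Of the superoxide dismutases and catalase, Sod2 rose, Cat fell and Sod1 was not called. Sod2 (chr17:13006846-13040063), the manganese superoxide dismutase of mitochondria, was at 166, 122 and 99.4 CPM with GSK-J4 and at 292, 272 and 244 CPM with LPS + GSK-J4. The groups were far apart and Sod2 rose 2.08-fold (log2 fold change 1.06, SE 0.16, adjusted p = 0.000137 by edgeR). Sod1, the copper-zinc enzyme of the cytosol, was at 32.6 ± 2.34 and 34.4 ± 0.627 CPM (0.09, interval -0.25 to 0.42, adjusted p = 0.747). Cat (chr2:103453849-103485160), the peroxisomal catalase, was at 105, 107 and 85.4 CPM and at 66.7, 63.7 and 72.3 CPM. It fell by 0.56 on the log2 scale (SE 0.14, adjusted p = 0.00654) with all 3 LPS + GSK-J4 libraries below the GSK-J4 group. The rise of Sod2 and the other up-regulated genes went with higher markers of astrocytes and oligodendrocytes and of some markers of neurons and fibroblasts. The part of those cells in that rise was not tested.

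**Figure D2:**
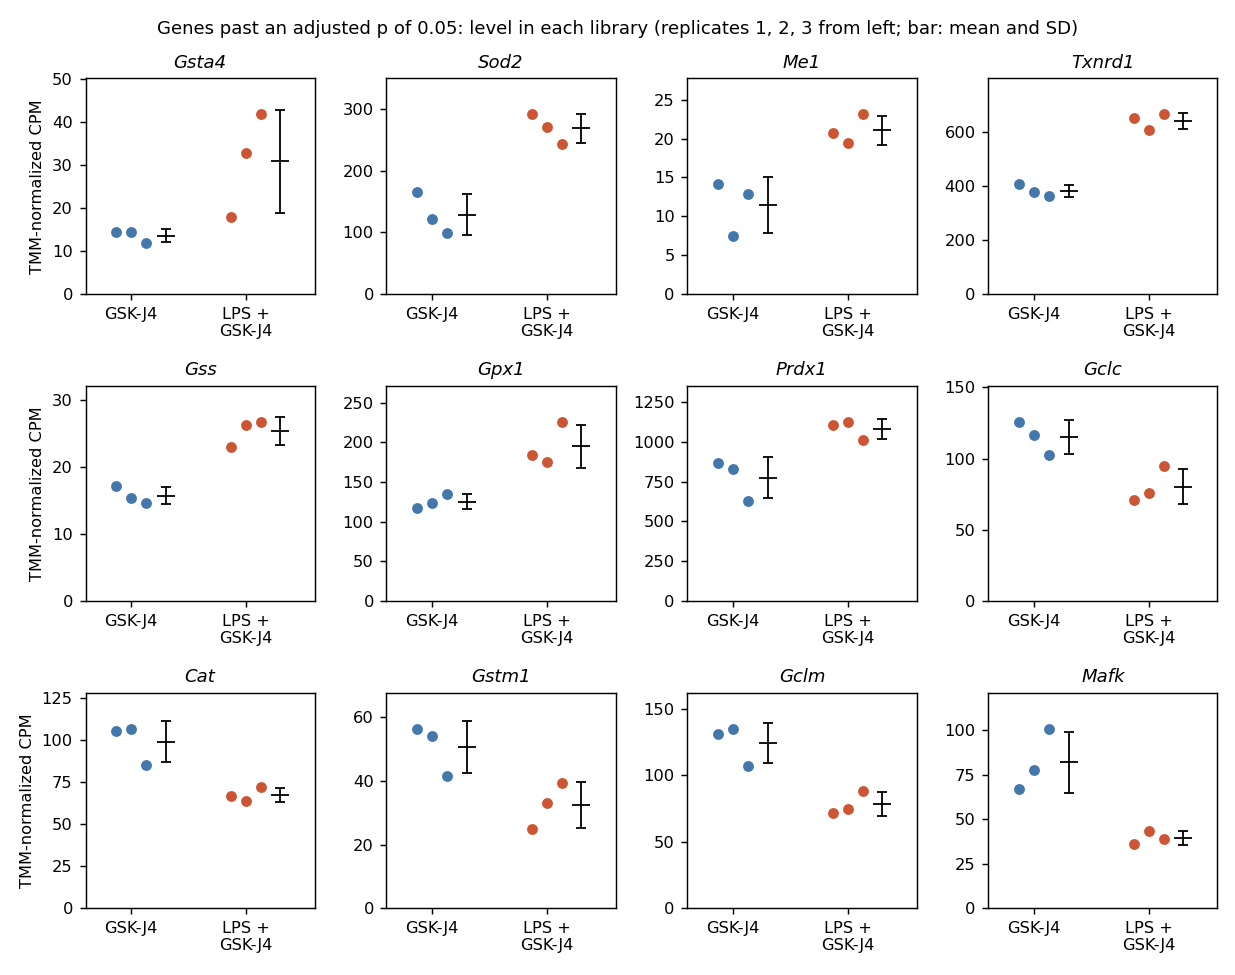
TMM-normalized CPM of the 12 called genes in each of the 6 libraries, with the mean and SD of each group. Sod2, Txnrd1 and Mafk are widely separated between the groups, whereas the highest LPS + GSK-J4 library of Gstm1 (39.2 CPM) lies close to its lowest GSK-J4 library (41.4 CPM).

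Levels were compared between genes per kilobase of exon, taking the union of all annotated exons, which understates a gene with long alternative exons. Hmox1 was the highest of the 34 in both groups, at 1728 ± 59.4 CPM per kilobase with GSK-J4 and 1397 ± 365 with LPS + GSK-J4. Prdx1 followed at 255 ± 42.2 and 355 ± 20.6 CPM per kilobase, and Txn1 was the third in both groups at 181 ± 14.1 and 146 ± 20.8. Gss was the lowest in both groups (2.67 ± 0.221 and 4.29 ± 0.350 CPM per kilobase), below Me1, Nqo1, Gstp1 and Keap1. Sod2 moved from rank 26 to rank 13, Gsta4 from 27 to 16 and Txnrd1 from 10 to 6, while Mafk moved from 19 to 27. In each group 9 of the 33 pairs of neighbours in this order did not overlap between libraries. With GSK-J4 these were Hmox1 over Prdx1, Prdx1 over Txn1, Txn1 over Prdx5, Prdx5 over Nfe2l2, Gpx1 over Pgd, Txnrd1 over Gsto1, Gsto1 over Cat, Gsta4 over Sod1 and Mafg over Keap1, and the other neighbours could not be ranked beyond their spread. With LPS + GSK-J4, Txn1 and Gpx1 overlapped, and so did Gpx1 and Prdx5.

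**Figure D3:**
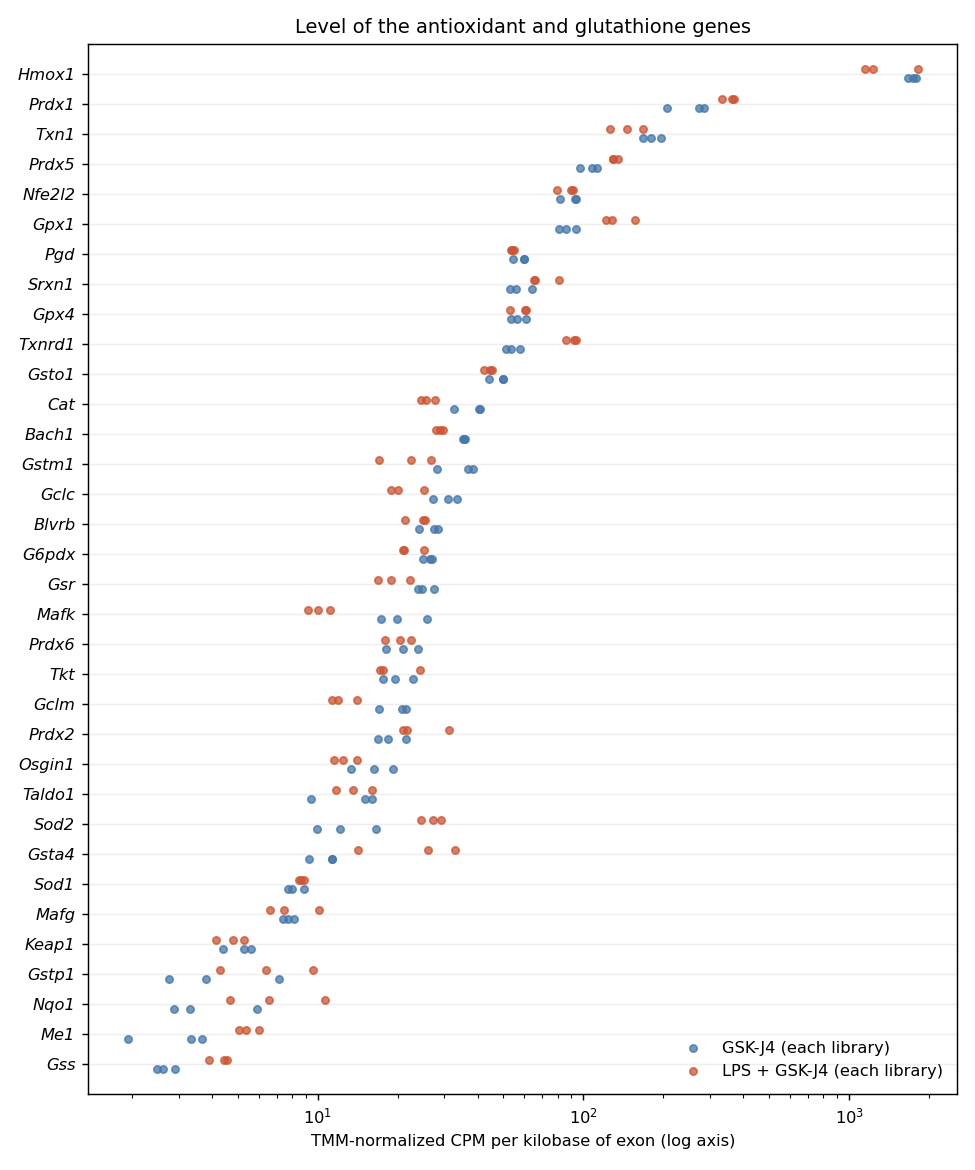
Level of the 34 genes in each library, in TMM-normalized CPM per kilobase of exon on a log axis, ordered by the mean of the GSK-J4 group. Hmox1 is far above the others at 1728 (GSK-J4) and 1397 (LPS + GSK-J4), and Gss is at the bottom at 2.67 and 4.29.

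Ratios of counts between a pair of genes within a library do not depend on the scaling of libraries, and were formed for pairs chosen after their values were seen, so they carry no test. The ratio of Sod2 to Cat was 1.57, 1.14 and 1.16 with GSK-J4 and 4.37, 4.26 and 3.38 with LPS + GSK-J4. Sod2 to Sod1 was 4.02 ± 1.30 and 7.82 ± 0.644 (SD, n = 3), and Txnrd1 to Txn1 was 2.02 ± 0.165 and 4.25 ± 0.790. In each of these pairs every LPS + GSK-J4 library was above every GSK-J4 library. Gss to Gclc was 0.138 ± 0.00516 and 0.319 ± 0.0327, and Gpx1 to Gpx4 was 1.28 ± 0.00870 and 1.96 ± 0.266. The 2 subunits of glutamate-cysteine ligase kept nearly the same proportion, with a ratio of Gclm to Gclc of 1.08 ± 0.0693 and 0.977 ± 0.0373, although it was slightly lower in all 3 LPS + GSK-J4 libraries. Maff to Mafk went from 0.849 ± 0.126 to 5.14 ± 0.560, the widest separation of the pairs formed. The ratios of Sod2 to Gpx1 and of Prdx1 to Srxn1 overlapped between the groups.

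**Figure D4:**
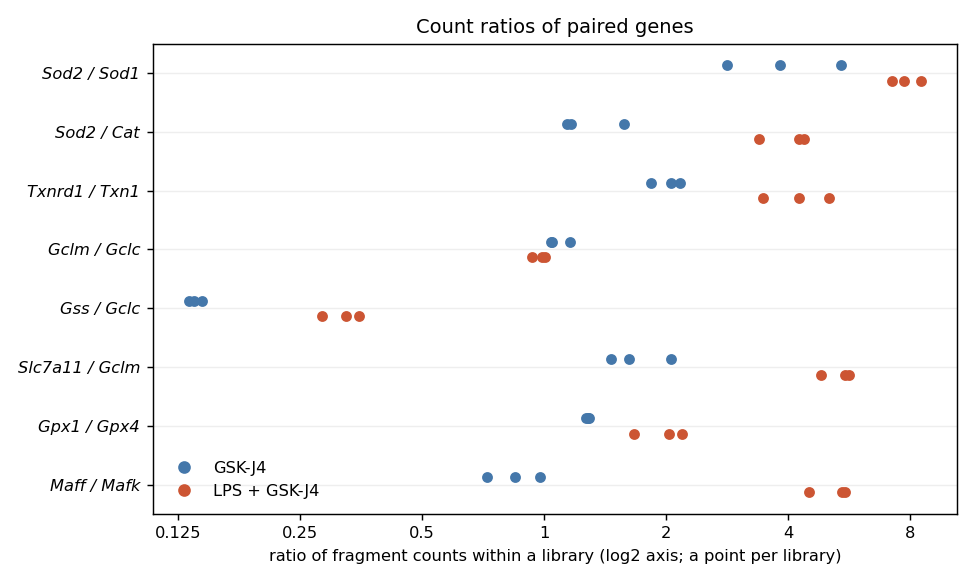
Ratios of fragment counts of gene pairs within each library on a log2 axis, a point per library, for GSK-J4 and LPS + GSK-J4. Maff to Mafk goes from a mean of 0.849 to 5.14 and Sod2 to Cat from 1.29 to 4.01, while Gclm to Gclc stays near 1 (1.08 and 0.977).

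The other genes of the pathway were taken from lists of 116 symbols, of which 114 were in the tables and 78 were tested. Of these 78, 7 were up-regulated (8.97%, against 13.7% of all genes tested) and 9 down-regulated (11.5% against 9.91%), and the median log2 fold change was -0.06. These shares were near those of all genes, so the genes named from the lists describe single genes and not the lists. Among 8 tested partners of NRF2 and KEAP1, 2 were up-regulated and 0 down-regulated. Besides Maff, described above, this was Sqstm1, the p62 autophagy receptor that competes for KEAP1. Sqstm1 was at 1219.8, 1182 and 1337 CPM with GSK-J4 and at 2226, 2297 and 2491 CPM with LPS + GSK-J4 (0.91, adjusted p = 7.63e-06 by edgeR), a wide separation from a high level.

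Of 14 tested genes of cystine import and glutathione turnover, 3 were up-regulated and 1 was down-regulated. Slc7a11, the cystine-glutamate antiporter that brings in the cysteine for glutathione, was at 269, 219 and 156 CPM with GSK-J4 and at 393, 422 and 427 CPM with LPS + GSK-J4 (log2 fold change 0.94, adjusted p = 0.000307 by edgeR). Its heavy-chain partner Slc3a2, shared with other transporters, was at 714 ± 27.4 and 639.9 ± 74.3 CPM (-0.16, adjusted p = 0.336). Slc7a11 thus moved opposite to Gclm, and the count ratio of Slc7a11 to Gclm was 1.71 ± 0.307 and 5.33 ± 0.437. Gpx8, a peroxidase of the endoplasmic reticulum, rose by a log2 fold change of 1.04 and Glrx, a glutaredoxin, by 0.92, whereas Gpx3, the secreted peroxidase, fell by 0.58 on the log2 scale.

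Among 7 tested glutathione transferases outside the 34, 0 were up-regulated and 2 were down-regulated, and 14 further ones were too low to test. Mgst1, a membrane-bound transferase, was at 113, 128 and 99.0 CPM with GSK-J4 and at 67.9, 71.0 and 59.9 CPM with LPS + GSK-J4 (log2 fold change -0.78, adjusted p = 0.000616 by edgeR). Hpgds, which makes prostaglandin D from its precursor with glutathione and is found in microglia, went from 94.6 ± 10.9 to 62.1 ± 8.06 CPM (-0.61). Both declined in the same direction as Gstm1 and opposite to Gsta4. Of 13 tested thioredoxin, peroxiredoxin and methionine sulfoxide reductase genes, 2 rose, Msrb3 (0.84) and the thioredoxin-like Txnl1 (0.57), and 1 fell, the selenoprotein Msrb1 (-0.69).

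Of 12 further NADPH genes, 0 were up-regulated and 2 were down-regulated, the mitochondrial transhydrogenase Nnt (log2 fold change -0.71) and the hexose-6-phosphate dehydrogenase of the endoplasmic reticulum, H6pd (-0.62). Of 17 tested genes in the list of further NRF2 targets, 0 were up-regulated and 2 were down-regulated. These were the glucuronosyltransferase Ugt1a7c (-0.68) and the efflux pump Abcc3 (-0.64). Slc7a11 (0.94) and Sqstm1 (0.91), which rose, were placed in other lists and are not part of that count. The ferritin chains, which store the iron that haem oxygenase frees, had log2 fold changes of 0.04 (Ftl1) and -0.25 (Fth1) and were not called. Of 7 tested genes of the NADPH oxidase, the enzyme that makes superoxide in phagocytes, 1 fell, the membrane subunit Cyba (-0.36, adjusted p = 0.0420 by edgeR). Its partner Cybb was at 672 ± 141 and 893 ± 124 CPM (0.41, adjusted p = 0.0532) and was not called.

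**Figure D5:**
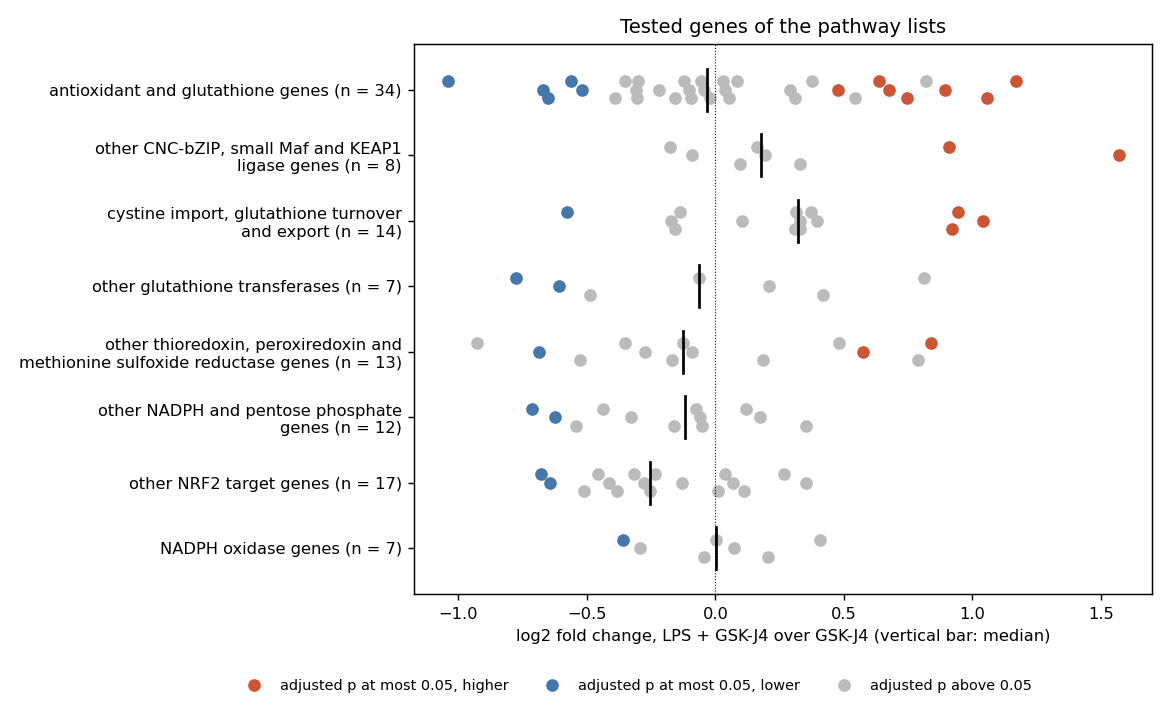
Log2 fold change, LPS + GSK-J4 over GSK-J4, of the 34 genes (top row) and of the tested genes of the further pathway lists, a point per gene, with called genes coloured and a bar at each median. Maff (1.57) is the highest point and stands in the same list as Sqstm1 (0.91), and Slc7a11 (0.94) stands in the list of cystine import. Called genes in the lists of other transferases, other NADPH genes and other NRF2 targets are all below 0.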

How the data were processed

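RNA-seq libraries were made from rRNA-depleted total RNA with a strand-specific kit. The authors trimmed reads (Trimmomatic 0.33), aligned them to mm10 (STAR 2.5.1) and deposited raw counts of fragments per gene, without normalization, from which the reverse-strand column was used here, since the same-strand column held only 0.966% to 1.38% of the stranded counts. The gene annotation used for counting is not given in the sources used here. Groups and replicate numbers came from the titles. Counts were tested in R 4.3.3 with edgeR 4.0.16 (TMM factors, 0.821 to 1.31, filterByExpr at a count of 10 and a total of 15, robust quasi-likelihood test, no covariates, common biological coefficient of variation 0.133), with DESeq2 1.42.0 as an alternative. SE was taken from the log2 fold change and its F statistic. On simulated data of this comparison (10133 genes) edgeR called 35 of 48 genes changed by 1 on the log2 scale and 6 of 46 changed by 0.5. Gene positions are GENCODE M21 (GRCm38, mm10) and promoters RefSeq GRCm38.p6. The 34 genes and the gene lists were chosen with earlier results of these data known. Every gene of the 34 is described, and of each further list up to 4 called genes with the largest change. Alternatives were other scaling, filters, strand, no Rn45s, Mir6236 and Lars2 features, a replicate block and leaving out each library. Same-numbered libraries had correlations of -0.0106, 0.114 and 0.291 between their deviations from the group means, and differently numbered ones of -0.285 to 0.239. Files were read and plotted in Python 3.11.15 (pandas 2.3.3, matplotlib 3.10.9).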

Additional observations from a re-analysis of the deposited data

How the results depend on the processing

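Over 14 alternatives 0 of the 34 genes changed sign while called, and 7 of the 12 calls held in every alternative (Mafk, Gclm, Gpx1, Gsta4, Txnrd1, Sod2 and Cat). The count of 0 genes past the thresholds of the study held in each. The 5 down-regulated genes became 9 without a filter on low counts. In that fit 7.31% of 18016 genes were down-regulated, against 9.91% of 10133 in the main fit, so these 2 shares have different bases. A fit with a replicate block also had 9 down-regulated, raised the up-regulated genes from 7 to 10, and called Hmox1 (-0.34, adjusted p = 0.0232 by edgeR). The shares of all genes rose in that fit too, to 17.3% up-regulated and 14.8% down-regulated, from 13.7% and 9.91%. The labels do not say whether same-numbered libraries were paired, and the fit without a block was kept. When single libraries were left out, 3 to 6 genes were down-regulated, with 3 without replicate 1 of GSK-J4 and without replicate 1 or 2 of LPS + GSK-J4, and 5 to 8 were up-regulated. Of all genes, 6.32% to 10.6% were then down-regulated and 9.66% to 13.0% up-regulated. The cause of these shifts was not tested. The median of the 34 genes was between -0.116 and 0.0448. The median of all genes was 0.127 with DESeq2 and 0.120 without the filter. Nqo1 and Gstp1 had as few as 14 and 16 counts in a library.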
